A study of Homo sapiens with 12 samples.

Results

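Chromosome 19 carried m6A peaks outside its ZNF genes in 901 regions of 499 genes, out of 20913 regions on all chromosomes (4.31%). The data were peak lists of N6-methyladenosine (m6A) in RNA of 143B, a human osteosarcoma cell line. They came from MeRIP-seq, where RNA fragments bound by an m6A antibody are sequenced. Members were chosen by rule: peaks on chromosome 19 that carried a gene number whose symbol does not begin with ZNF were joined into 1 region wherever exon blocks of the same strand shared 1 bp or more. A region is "called" in a library that has a peak there. The presence of a peak in any of the 6 lists therefore chose the members, and their number is a description. Knockdown and scrambled calls were not part of the rule, but earlier results on these libraries were known when the chromosome was picked out.

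The tested libraries were 3 immunoprecipitates from cells given siRNA against ALKBH5 with the lipid reagent RNAiMAX, and the controls were 3 immunoprecipitates from cells given scrambled siRNA in the same way, all harvested at 48 h. The replicate number also stood for the method. Replicates 1 and 3 used polyadenylated RNA and different antibodies, while replicate 2 used total RNA, the Magna MeRIP kit and yet another antibody, per the protocol in the labels, although the antibody field names the replicate 1 antibody for every library. A pair below means the knockdown and scrambled libraries of 1 number. The labels do not say that the replicates came from different cultures, so p-values measure only the spread between these samples, which may be technical. ALKBH5 itself, on another chromosome, had a peak in 0 of 3 knockdown libraries and in 2 of 3 scrambled libraries. Peak calls do not measure RNA level, so the strength of the knockdown is not known from them, and a difference in methylation cannot be told apart from one in RNA abundance. The lists held 5677 to 18724 peaks each, with no read counts, so the depth behind a call is unknown, and a region without a call may still carry the mark.

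The m6A mark is written on messenger RNA by the METTL3 and METTL14 complex, removed by the demethylases ALKBH5 and FTO, and read by proteins such as the YTH family, which act on the splicing, translation and decay of the RNA. It tends to sit in long internal exons and around stop codons. Chromosome 19 is the most gene-dense human chromosome. Its genes include large clusters of zinc finger genes, many of them repressors of transposable elements, set among housekeeping and signalling genes. The regions described here leave out the genes with ZNF symbols but keep zinc finger genes of other names. No hg19 annotation, the build of the lists, was used here, so coding and untranslated parts of a gene were not distinguished.

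Of the 499 genes, 476 were protein-coding, 18 made long noncoding RNAs, 3 were transcribed pseudogenes and 2 were microRNA genes. The peaks listed under the microRNA genes fell within regions joined with peaks of ATF5, a stress-response transcription factor (MIR4751), and of CACNG8, a regulator of AMPA receptors (MIR935). Reads of a microRNA precursor and of the overlapping gene cannot be told apart in such a peak. MIR4751 itself was listed in 0 of 3 knockdown libraries and in 1 scrambled library, replicate 3 (74 nt). MIR935 was listed in replicate 3 alone, with 91 nt in the knockdown and 91 nt in the scrambled library. The region that ATF5 and MIR4751 share (hg19, chromosome 19, 50434198 to 50436510, plus strand) was called in all 6 libraries through ATF5 peaks. All peaks there covered 446, 120 and 803 nt in replicates 1, 2 and 3 of the knockdown, against 328, 119 and 920 nt in the scrambled libraries. The region that CACNG8 and MIR935 share (54485498 to 54485798) was called in replicates 1 and 3 only, with 181 and 271 nt in the knockdown libraries against 61 and 91 nt in the scrambled libraries. In scrambled replicate 3 those 91 nt were the MIR935 peak alone. The mature RNAs are printed because they are the members whose RefSeq sequence (GRCh38.p14) could be set beside a region by name, with the seed (bases 2 to 8) in capitals:
hsa-miR-4751: aGAGGACCcguagcugcuagaagg
hsa-miR-935: cCAGUUACcgcuuccgcuaccgc
The seeds differ. GGAC, a core of the sequence that the m6A writers prefer, was searched on the RNA strand. It occurs once in the MIR4751 hairpin, shown next with GGAC in capitals, and has no match in that of MIR935. Of the 1562 hairpins in the table, 27.3% hold it, so a match is a description of the letters and not a site.
MIR4751 hairpin: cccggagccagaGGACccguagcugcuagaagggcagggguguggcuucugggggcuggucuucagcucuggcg

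The 901 regions covered 59 to 3535 nt of exon (median 299 nt, quartiles 150 and 595 nt), and 250 of them (27.75%) held a peak that spanned more than 1 exon block. On the other chromosomes the median was 330 nt and 24.8% spanned more than 1 block. Most genes had few regions: 256 had 1, 226 had 2 to 4, and 17 had 5 or more. Calls ranged from a core seen in every library to many single sightings. In between, 169, 106, 137 and 60 regions were called in 2, 3, 4 and 5 libraries. There were 136 regions called in all 6 libraries (15.1%, against 13.1% on other chromosomes), with a median exon length of 958 nt. A further 293 regions were called in 1 library only (32.5%, against 28.5% on other chromosomes), with a median of 121 nt. A region's exon length joins the peaks of every library that called it, so the gap between these medians is partly fixed in advance. Each peak carries the authors' score, which was used only to rank peaks within a list, on a percentile where 100 is the best. In the library where it ranked lowest, a core region had a median percentile of 52.5, and for the single sightings the median was 17.3.

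Knockdown libraries called more chromosome 19 regions than their scrambled partners in all 3 pairs. The knockdown libraries called 563, 215 and 615 regions in replicates 1, 2 and 3, against 475, 168 and 577 in the scrambled libraries. The low value of each group is replicate 2, and the groups overlap widely. The knockdown mean was 464.3 ± 217.5 regions and the scrambled mean 406.7 ± 212.9 (SD, n = 3 each). The difference of 57.7 regions lay inside that spread (two-sided exact permutation test, p = 0.6, the smallest possible for 3 against 3 being 0.1). Within pairs the knockdown held 88, 47 and 38 more regions, and the exact sign-flip test of these differences gave p = 0.25, the smallest that 3 pairs allow. The difference turned negative without knockdown replicate 3 (-17.7) or without scrambled replicate 2 (-61.7). With 1 library left out the groups no longer hold the same methods. These values therefore mix method with knockdown and cannot weigh the differences within pairs.

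Genes followed the same order, with 379, 174 and 409 called under ALKBH5 siRNA and 335, 139 and 392 under scrambled siRNA. Peaks covered 231.9, 61.1 and 304.5 kb of exon in replicates 1, 2 and 3 of the knockdown, against 153.6, 42.4 and 267.0 kb in the scrambled libraries. The within-pair ratios of covered length were 1.51, 1.44 and 1.14. Every knockdown list therefore covered more chromosome 19 exon than its partner, while the group means, 199.2 ± 125.0 kb against 154.3 ± 112.3 kb (SD, n = 3 each), were not separated (exact permutation test, p = 0.7; sign-flip test, p = 0.25). Without knockdown replicate 3 the difference was -7.84 kb, and without scrambled replicate 2 it was -11.1 kb, again between groups of unlike methods.

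List size moves with these counts, and replicate 1 had the more unequal lists. As a share of all regions that a library called, chromosome 19 outside ZNF genes made up 4.25, 5.12 and 4.01% in replicates 1, 2 and 3 of the knockdown, against 4.54, 4.12 and 3.68% for scrambled siRNA. The share was larger in the knockdown in replicates 2 and 3 (by 1.00 and 0.33 percentage points) and smaller in replicate 1 (-0.29 points). The mean difference of 0.35 points was not distinguishable from the spread between libraries (exact permutation test, p = 0.5; sign-flip test, p = 0.5). It was 0.014 points without knockdown replicate 2, again between groups of unlike methods. The share of chromosome 19 ZNF genes was 1.8, 0.62 and 1.92% in the knockdown libraries against 2.12, 0.88 and 2.37% in the scrambled libraries, smaller in every pair (exact permutation test, p = 0.5; sign-flip test, p = 0.25).

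**Figure D1:**
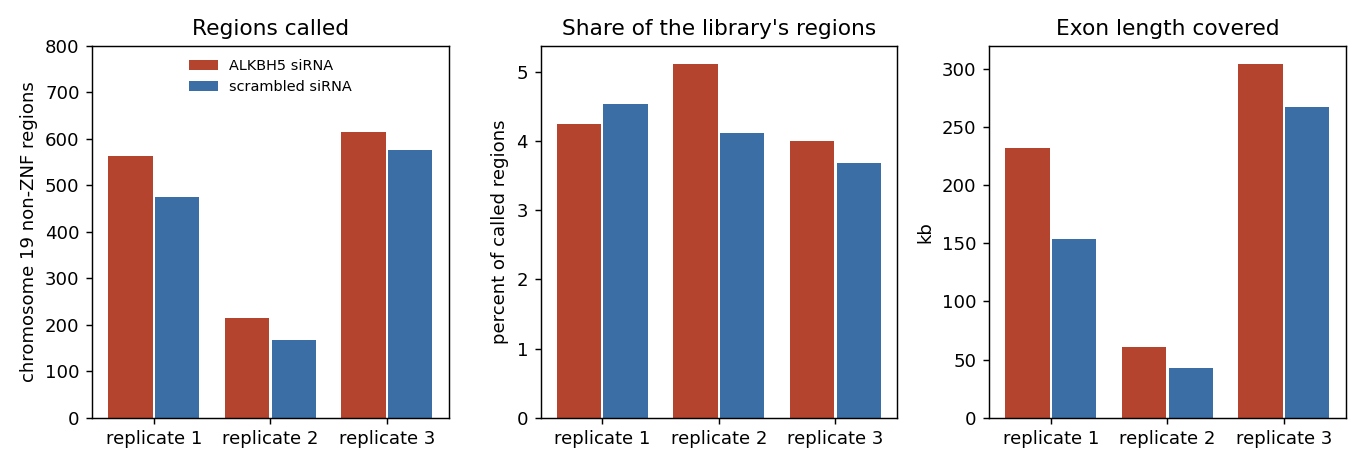
Bars give, for each library, the number of chromosome 19 regions outside ZNF genes (left), their percent of all regions called in that library (middle) and the exon length their peaks covered in kb (right), with ALKBH5 siRNA in red and scrambled siRNA in blue. The red bar is taller in every pair on the left and right, whereas in the middle panel replicate 1 has 4.25% under ALKBH5 siRNA and 4.54% under scrambled siRNA.

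The direction of the differing calls was then compared pair by pair. A region is gained when called in the knockdown library and not in its partner, and lost in the opposite case. In replicate 1, 192 of the 901 member regions were gained and 104 lost, and over all 20913 regions 21.3% were gained and 8% lost. In replicate 2, 73 were gained and 26 lost, against a background of 6.17% gained and 5.59% lost. In replicate 3, 116 were gained and 78 lost, against 11.2% gained and 12.8% lost. Gains outnumbered losses in every pair, while over all regions losses outnumbered gains in replicate 3.

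As a percent of the regions that differed, gains made up 64.9% of the member regions in replicate 1 (95% Wilson interval 59.3 to 70.1%), 73.7% in replicate 2 (64.3 to 81.4%) and 59.8% in replicate 3 (52.8 to 66.4%). The intervals cover counting error only and treat regions as independent. On all other chromosomes together the gained share was 73.3, 51.8 and 46.9%. Chromosome 19 was thus lower by 8.39 percentage points in replicate 1 and higher by 21.9 and 12.9 points in replicates 2 and 3. Among the 23 chromosomes with such a share, it ranked last in replicate 1, where the other chromosomes ran from 67.1 to 77.9%. It ranked first in replicates 2 and 3, where the others ran from 39.6 to 65.9% and from 33.3 to 57.0%. The others kept their ZNF genes, so a part of chromosome 19 was ranked against whole chromosomes. The ZNF genes left out of it had gained shares of 30.8 and 16.1% in replicates 2 and 3. The mean of the 3 differences, 8.81 ± 15.6 points (SD, n = 3 pairs), did not stand apart from 0 (exact sign-flip test, p = 0.5). With the ZNF genes of chromosome 19 included, the mean difference was 0.11 points.

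The gene-dense chromosomes 16, 17 and 22 differed less from chromosome 19 outside ZNF genes. Their joint gained share was 73.1, 63.4 and 55.0% in replicates 1, 2 and 3, so that the chromosome 19 values differed by -8.24, 10.4 and 4.75 points (mean 2.29 ± 9.54, SD, n = 3 pairs; exact sign-flip test, p = 0.75). The mean was -1.74 points without replicate 2. The ZNF genes of the same chromosome had a lower gained share than the other chromosomes in every pair. Their gained shares were 60.3, 30.8 and 16.1%, from 47, 8 and 18 regions gained and 31, 18 and 94 lost. Regions outside ZNF genes exceeded them by 4.61, 43.0 and 43.7 points, the same direction in 3 of 3 pairs (exact sign-flip test, p = 0.25, the smallest possible).

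**Figure D2:**
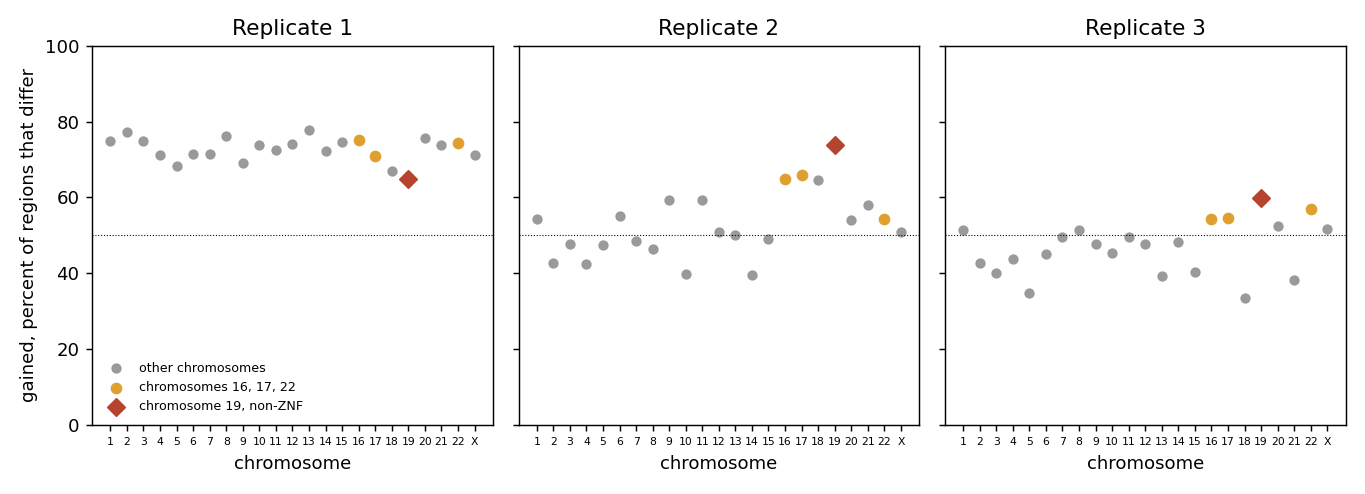
Each point is a chromosome and the vertical axis is the percent of differing regions that were gained under ALKBH5 siRNA, with 1 panel per replicate and a dotted line at 50%. The red diamond for chromosome 19 outside ZNF genes is the lowest point in replicate 1 (64.9%) and the highest in replicates 2 and 3 (73.7 and 59.8%), with chromosomes 16, 17 and 22 in yellow. The other chromosomes keep their ZNF genes.

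Position along the chromosome was read in windows of 5 Mb, counted from the end of the short arm (hg19). Member regions filled 11 of 12 windows, with 174 in the first window (0 to 5 Mb), 123 at 15 to 20 Mb and 121 at 45 to 50 Mb. The window at 20 to 25 Mb held 37 ZNF regions and no member, and the one at 25 to 30 Mb held a single member, in the noncoding RNA LINC00662. In 6 of the 11 windows gains outnumbered losses in all 3 pairs. The first window had 44 gained and 24 lost in replicate 1, 19 and 5 in replicate 2, and 30 and 13 in replicate 3. The strongest imbalance in replicate 2 came from 45 to 50 Mb, with 15 gained and 0 lost, next to 9 gained and 1 lost at 40 to 45 Mb. In replicates 1 and 3 the window at 45 to 50 Mb had 26 gained and 9 lost, and 14 gained and 12 lost.

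The end of the long arm had lower gained shares than the rest of the chromosome as a whole, though single windows elsewhere also held more losses than gains in replicate 3 (7 gained and 12 lost at 15 to 20 Mb, 6 and 9 at 35 to 40 Mb). From 50 to 55 Mb, losses outnumbered gains in each pair, with 11 gained and 15 lost in replicate 1, 2 and 5 in replicate 2, and 8 and 10 in replicate 3. The last window, 55 to 60 Mb, had 13 gained and 9 lost, 2 and 2, and 3 and 4. Together these windows held 126 member regions, and their gained shares were 50, 36.4 and 44.0% in replicates 1, 2 and 3, against 67.7, 78.4 and 62.1% in the 775 members before 50 Mb. The median ratio of covered length there, knockdown over scrambled, was lower than before 50 Mb in replicate 2 and higher in replicates 1 and 3. In regions of that stretch called in both libraries, 44 were longer and 8 shorter in the knockdown in replicate 1, 8 and 6 in replicate 2, and 41 and 11 in replicate 3. Their median log2 length ratios were 0.53, 0.01 and 0.19, against 0.42, 0.42 and 0.12 before 50 Mb. The same stretch held 211 of the 410 ZNF regions of the chromosome (51.5%). This stretch was singled out after its values were seen, so no test is given. Split into arms at 26 Mb, the short arm had gained shares of 69.0, 71.4 and 64.1% and the long arm 60.1, 76.7 and 54.9%, a mean difference of 4.22 ± 8.26 points (SD, n = 3 pairs; exact sign-flip test, p = 0.5).

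**Figure D3:**
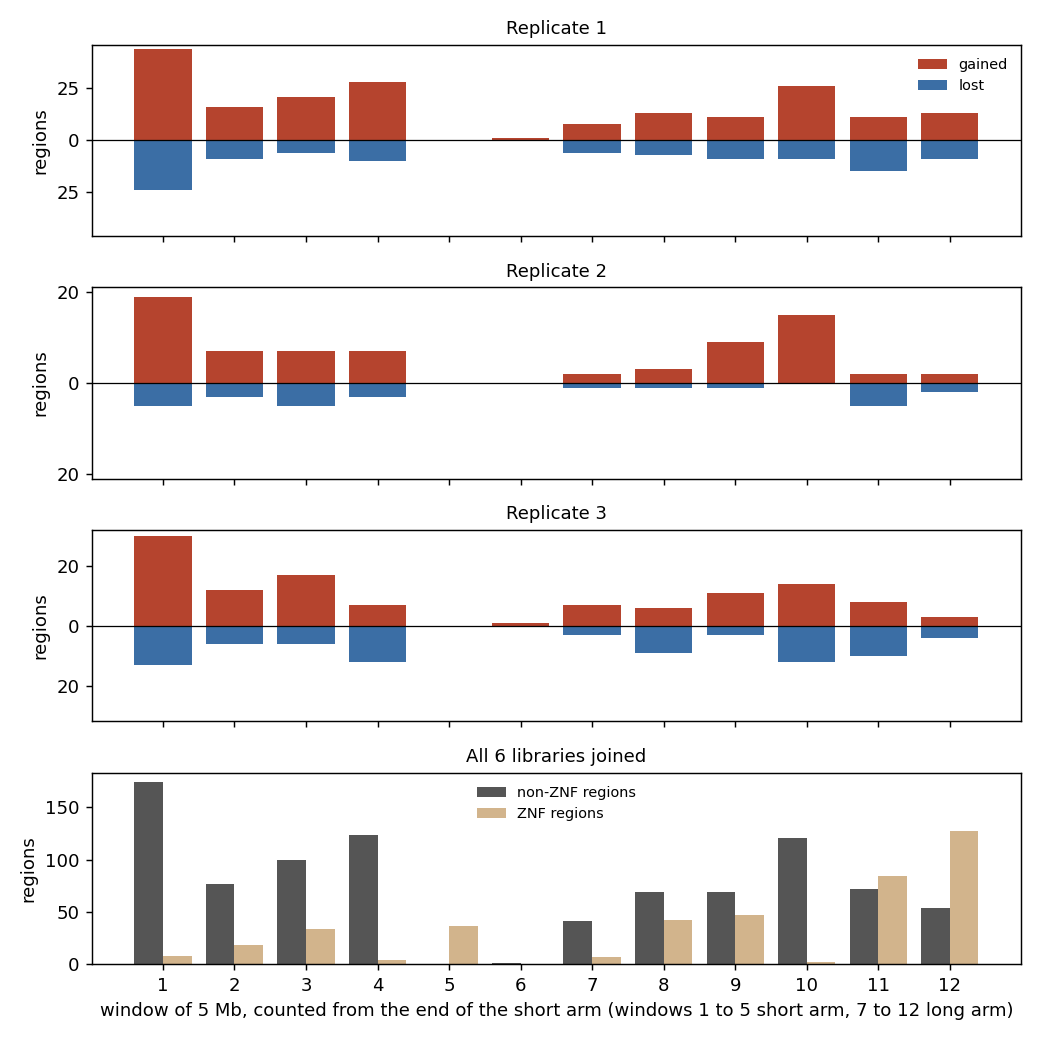
The upper panels count member regions gained (red, upward) and lost (blue, downward) under ALKBH5 siRNA in each 5 Mb window of chromosome 19, 1 panel per replicate, and the lowest panel counts all member regions beside ZNF regions. Red exceeds blue in all 3 replicates in windows 1, 2, 3, 7, 9 and 10, and blue exceeds red in all 3 in window 11, where 84 ZNF regions also lie.

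Covered length gives a second readout from the same lists, restricted to regions that both libraries of a pair called. Among the member regions called in both libraries of a pair, covered length was longer in the knockdown for 281 and shorter for 69 of 371 regions in replicate 1, where 78.1% of all such regions were longer and 17.3% shorter. In replicate 2, 93 were longer and 37 shorter of 142, against 50.9% longer and 39.9% shorter over all regions. In replicate 3, 305 were longer and 147 shorter of 499, against 47.2 and 43.1%. The median length was 448 nt in knockdown and 270 nt in scrambled in replicate 1, 269.5 and 210 nt in replicate 2, and 449 and 390 nt in replicate 3.

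The median log2 ratio of covered length, knockdown over scrambled, was 0.45, 0.38 and 0.13 on chromosome 19 in replicates 1, 2 and 3. It was 0.48, 0.01 and 0 on the other chromosomes. Replicate 1 was lengthened to a like extent across the genome, while in replicates 2 and 3 the chromosome 19 median lay above that of other chromosomes by 0.37 and 0.13. The mean difference was 0.15 ± 0.21 (SD, n = 3 pairs; exact sign-flip test, p = 0.5), and it was 0.05 without replicate 2. Chromosomes 16, 17 and 22 had medians of 0.49, 0.21 and 0.09, and chromosome 19 differed from them by -0.04, 0.17 and 0.04 (exact sign-flip test, p = 0.5). The ZNF genes of chromosome 19 had medians of 0.40, -0.46 and -0.17, below the other genes of the chromosome in 3 of 3 pairs (by 0.05, 0.84 and 0.30; exact sign-flip test, p = 0.25).

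Among the 136 members called in all 6 libraries, 62 (45.6%) were longer in the knockdown in all 3 pairs and 1 was shorter in all 3. Over all 2722 regions called in all 6 libraries, 31.4% were longer in every pair and 1.84% shorter, and on chromosomes 16, 17 and 22 the shares were 36.3 and 0.66%. Median covered length of the 136 was 660.5, 270 and 870.5 nt in replicates 1, 2 and 3 of the knockdown, against 478.5, 211 and 747.5 nt in the scrambled libraries. On the other chromosomes the medians were 689, 240 and 810 nt against 479.5, 212 and 778 nt. Each knockdown value lies above that of its partner, on chromosome 19 and elsewhere.

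**Figure D4:**
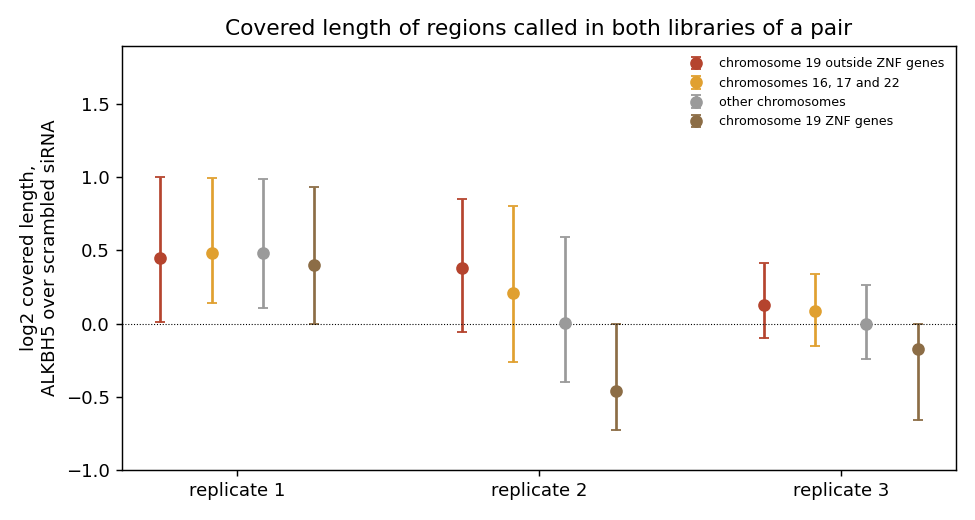
Points are medians, and bars span the quartiles, of the log2 ratio of covered length (ALKBH5 over scrambled siRNA) in regions called in both libraries of a pair. In replicate 1 all 4 groups of regions lie between 0.40 and 0.49, and in replicate 2 chromosome 19 outside ZNF genes is at 0.38 against -0.46 for its ZNF genes.

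The 5 core regions with the best-ranked peaks lay in genes of transcription, RNA processing and cell death. They were in SCAF1, a protein that binds the tail of RNA polymerase II, NFIC, a transcription factor of the nuclear factor I family, MED26, a Mediator subunit, REXO1, an RNA exonuclease, and DAPK3, a death-associated protein kinase. The SCAF1 region (chromosome 19, 50155589 to 50157949, plus strand) covered 1289, 1230 and 1438 nt in the knockdown libraries, against 1050, 840 and 1378 nt under scrambled siRNA. The REXO1 region (1825921 to 1828593, minus strand) covered 1529, 1410 and 1590 nt against 783, 991 and 1530 nt. In both regions each knockdown value exceeded that of its partner, and REXO1 in replicate 1 had the widest gap of the 5 regions.

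Calls in all 3 knockdown libraries without any scrambled call were seen in 2 member regions, a pattern of 0.134% of all regions. None showed the reverse (0.00956% of all regions). The first lay in APC2 (gene number 10297), a relative of the tumour suppressor APC that acts in Wnt signalling and on the cytoskeleton, at 1470994 to 1471474 on the plus strand. It covered 302, 181 and 331 nt in replicates 1, 2 and 3 of the knockdown. The second lay in IRGQ (gene number 126298), a protein of the immunity-related GTPase family, at 44090228 to 44090467 on the minus strand, and covered 120, 90 and 180 nt. These calls were weak to middling within their lists, with percentiles of 59.9, 29.2 and 35.7 for APC2 and 13.5, 12.7 and 18.2 for IRGQ. With 3 libraries against 3, no single region can pass a test. The count was 4 without knockdown replicate 1, 5 without knockdown replicate 3, and 18 both without knockdown replicate 2 and without scrambled replicate 3. The reverse pattern had 7 regions without scrambled replicate 2. With a library left out, the rule asked for fewer libraries. The matching shares over all regions were not computed, so these counts say nothing particular to chromosome 19.

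APC2 was also the member gene with the most regions, 8 of them between 1460791 and 1472253. It had 6, 3 and 8 peaks in replicates 1, 2 and 3 of the knockdown, and 1, 0 and 5 in the scrambled libraries. These covered 1416, 633 and 3638 nt in the knockdown libraries against 151, 0 and 1025 nt in the scrambled libraries. Both peak number and covered length were larger in the knockdown in 3 of 3 pairs, although scrambled replicate 3 lay above knockdown replicate 2, so the groups overlap. These totals include the knockdown-only region that named APC2 above (302, 181 and 331 nt), so they are not separate support for it. A region counts among the 8 when any library called it, and some were called in knockdown libraries alone. In IRGQ, by contrast, the gene as a whole had a peak in all 6 libraries, with 602, 271 and 782 nt covered in the knockdown against 332, 151 and 691 nt in the scrambled libraries. Other genes with many regions included PRR12 (7), and SLC39A3 and CACNG8 (6 each). PRR12 peaks covered 1172, 482 and 1889 nt in the knockdown and 843, 333 and 1200 nt in the scrambled libraries.

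The promoters of APC2 and IRGQ are given because these genes hold the 2 regions called throughout the knockdown and nowhere in the controls. They describe the base composition of the genes, not the methylated RNA, whose own sequence was not used here. Each is the 250 bases before the start of the gene, on the gene's strand, from RefSeq (GRCh38.p14), with every CG dinucleotide in capitals.
APC2, chr19:1449871-1450120, plus strand: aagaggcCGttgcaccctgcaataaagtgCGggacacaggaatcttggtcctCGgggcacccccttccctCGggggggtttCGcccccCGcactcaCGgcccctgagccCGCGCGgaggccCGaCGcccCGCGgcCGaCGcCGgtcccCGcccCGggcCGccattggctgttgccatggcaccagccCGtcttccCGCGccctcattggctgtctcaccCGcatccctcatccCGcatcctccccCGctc
IRGQ, chr19:43596135-43596384, minus strand: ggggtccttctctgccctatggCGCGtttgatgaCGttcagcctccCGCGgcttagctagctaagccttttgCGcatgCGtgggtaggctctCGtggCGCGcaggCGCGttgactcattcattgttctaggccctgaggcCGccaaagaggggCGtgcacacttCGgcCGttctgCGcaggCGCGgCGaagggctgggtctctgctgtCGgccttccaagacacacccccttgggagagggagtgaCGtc
The APC2 promoter holds 26 CG and is 72.0% G or C, and that of IRGQ holds 22 CG at 63.6%. CG reads the same on both strands. Of the 499 member genes, 419 matched a promoter, with a median of 66.4% G or C, and 88.5% of these held at least 10 CG. Other genes with a peak had a median of 65.2% (8014 of 10001 matched) and 84.4% with at least 10 CG, chromosome 19 ZNF genes had 60.4%, and all promoters in the table had 58.0% and 51.9%. The 32 matched genes with a region gained in at least 2 pairs had a median of 64.6%.

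Repeated gains were more numerous than repeated losses. There were 40 member regions gained in at least 2 pairs and lost in none (4.44%, against 3.43% of all regions), and 8 lost in at least 2 pairs and gained in none (0.888%, against 1.07% of all regions). On chromosomes 16, 17 and 22 the shares were 4.27 and 0.846%, and in ZNF genes of chromosome 19 they were 0.488 and 1.95%. The repeated gains had a median of 315 nt of exon, and 23 lay on the short arm and 17 on the long arm. In 8 of these gains the gene had no peak in any scrambled library, and in 11 the gene had a peak in each of the 3. Of regions that differed in 2 pairs, replicates 1 and 2 gave 21 gained in both, 0 lost in both and 6 opposite, replicates 1 and 3 gave 18, 7 and 11, and replicates 2 and 3 gave 5, 1 and 0. On other chromosomes the same counts were 217, 25 and 146, then 469, 163 and 329, then 47, 38 and 20. The direction was the same in 77.8, 69.4 and 100% of these members, against 62.4, 65.8 and 81.0% on other chromosomes. Without replicate 1 the members had 5 repeated gains and 1 repeated loss, without replicate 2 they had 18 and 7, and without replicate 3 they had 21 and 0. Shares over all regions were not recomputed for these.

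Ordered by lowest percentile, the 10 best-ranked of the 40 lay in LINC00662, DMWD, KLF16, DHX34, MRPL4, PPP1R15A, APC2 (2 regions), CHST8 and GADD45B. KLF16, a Krüppel-like transcription factor, was called at 1854153 to 1854510 with 179, 179 and 358 nt in the knockdown libraries, against 0, 0 and 239 nt in the scrambled libraries. DHX34, a helicase of nonsense-mediated decay, covered 180, 150 and 329 nt against 0, 0 and 240 nt at 47885246 to 47885574. PPP1R15A, the stress-induced subunit that directs a phosphatase to eIF2α, covered 419, 180 and 507 nt against 0, 0 and 388 nt at 49376550 to 49377056. These regions had the same pattern: called in all 3 knockdown libraries, and among the controls in replicate 3 alone. The regions were chosen as gained in at least 2 pairs, so calls in most knockdown and few scrambled libraries follow from that choice.

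A second APC2 region (1466525 to 1468025) and a region in DMWD, a WD-repeat gene, had that pattern too. In DMWD (46286654 to 46287583) the knockdown libraries covered 331, 181 and 930 nt and the scrambled libraries 0, 0 and 571 nt. LINC00662, a long noncoding RNA, was called at 28283985 to 28284581 with 209, 0 and 298 nt in the knockdown and in no scrambled library. A region of CHST8, a sulfotransferase, was likewise called in knockdown replicates 1 and 3 and in no scrambled library (34263637 to 34263966). So was 1 region of GADD45B, a stress sensor of the growth arrest family (2476152 to 2476388). Another GADD45B region (2477581 to 2478257) was called in all 6 libraries. MRPL4, of the mitochondrial ribosome, was called at 10369107 to 10369371 with 149 and 179 nt in knockdown replicates 1 and 2 and in no other library.

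Among the 8 repeated losses the median exon length was 254 nt, and 6 lay on the long arm. They were in TPM3P9, SLC25A23, PDCD2L, ZFP14, OCEL1, APOE, ETV2 and FIZ1. TPM3P9 is a pseudogene of tropomyosin 3, so its reads may be shared with near-identical copies. Its region (53945424 to 53945751) covered 0, 0 and 0 nt in the knockdown libraries, against 269, 0 and 179 nt under scrambled siRNA. SLC25A23, a mitochondrial carrier, covered 0, 0 and 0 nt against 151, 0 and 241 nt at 6440081 to 6440380. APOE, the lipoprotein component, covered 0, 0 and 0 nt against 178, 0 and 118 nt at 45411913 to 45412090. PDCD2L was the exception in being called in knockdown replicate 1, with 297, 0 and 0 nt in the knockdown and 90, 119 and 238 nt in the scrambled libraries. All but PDCD2L were missed by both libraries of replicate 2.

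**Figure D5:**
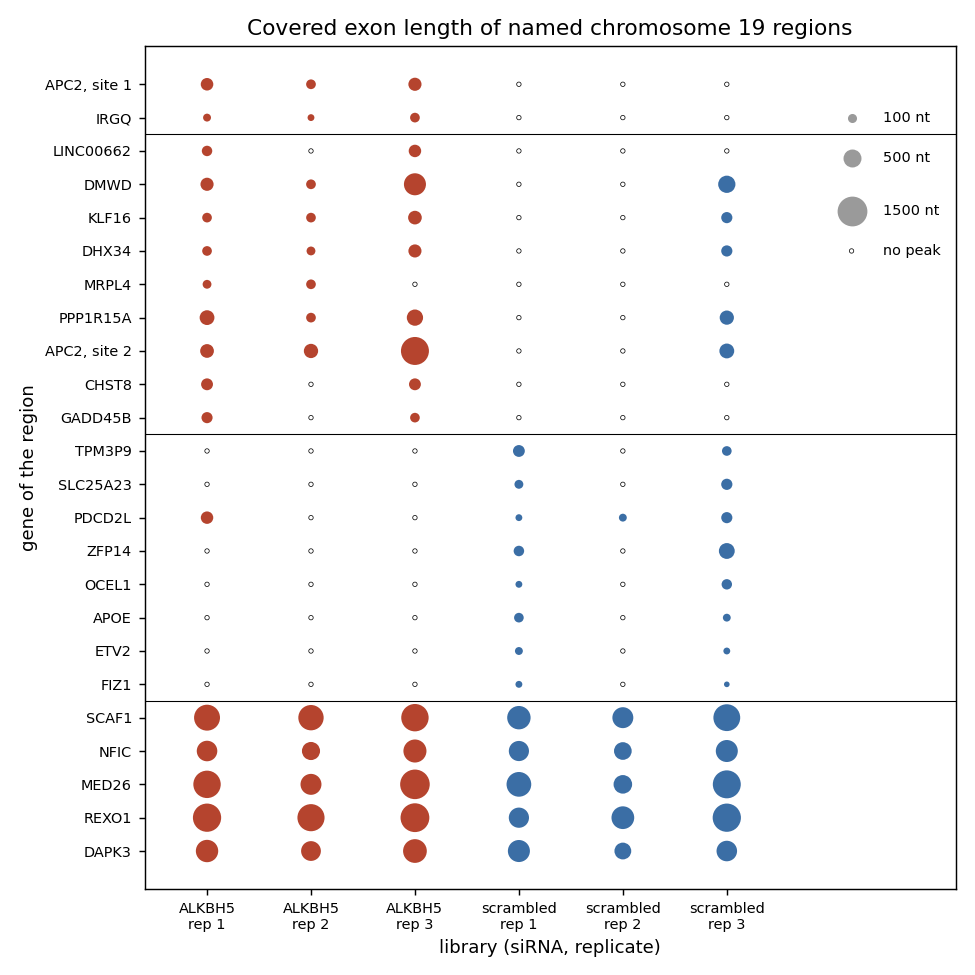
Rows are named member regions, columns the 6 libraries (ALKBH5 siRNA in red, scrambled siRNA in blue), and the area of a circle is the covered exon length in nt, with a small open circle for no peak. The upper blocks show APC2 and IRGQ, called in all 3 ALKBH5 siRNA libraries and no scrambled library, then repeated gains, then repeated losses such as APOE, and the lowest block shows regions called in all 6 libraries.

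At the level of genes, 152 of the 499 were called in more knockdown than scrambled libraries (30.5%, against 26% of all 10500 genes) and 68 in fewer (13.6%, against 17.1%). MRPL4 and PNPLA6, a phospholipase of the endoplasmic reticulum, were called in all 3 knockdown and no scrambled libraries, a pattern of 0.114% of all genes, and no gene showed the reverse (0.0286%). The count was 9 both without knockdown replicate 2 and without scrambled replicate 3, and 0 with the best-scored 50% of each list. The reverse count was 5 without scrambled replicate 2 and 1 without knockdown replicate 1. With a library left out, the rule asked for fewer libraries, and the matching shares over all genes were not computed. MRPL4 peaks covered 149, 179 and 120 nt in the knockdown libraries, in 2 separate regions. PNPLA6 peaks covered 151, 61 and 152 nt, in 3 regions. Neither gene had a region shared by all 3 knockdown libraries, so the gene calls rest on different sites.

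The genes were also read by role, over 10 lists with 330 entries, of which 207 had a peak. The lists were made with earlier results of these libraries known, and their counts are descriptions. Each share is read beside the 26% of all genes called in more and 17.1% called in fewer knockdown libraries, and the median difference in libraries called was 0 in every list. Among transcription factors and chromatin regulators, 16 of 43 were called in more knockdown libraries (37.2%) and 1 in fewer (2.33%). That 1 was KLF2, named after its values were seen. The list is not complete. ETV2 (0 knockdown and 2 scrambled libraries) and GTF2F1 (2 and 3) were not counted in it. How far the low share called in fewer depends on which factors were listed was not tested. TCF3, an E-protein transcription factor, covered 271, 91 and 570 nt in the knockdown libraries, against 0, 0 and 451 nt under scrambled siRNA. CEBPA, a factor of myeloid and fat cell differentiation, covered 508, 120 and 656 nt against 301, 0 and 566 nt, and the ETS repressor ERF covered 360, 150 and 509 nt against 210, 0 and 508 nt. In CEBPA and ERF the call that differed was that of replicate 2 alone. The remaining 26 were called in equal numbers of libraries.

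Among kinases and signalling genes, 11 of 28 were called in more knockdown libraries (39.3%, against 26% of all genes) and 4 in fewer (14.3%, against 17.1%). PIK3R2, a regulatory subunit of phosphoinositide 3-kinase, covered 151, 302 and 482 nt in the knockdown and 0, 0 and 422 nt in the scrambled libraries. MAP3K10, a mixed-lineage kinase, covered 872, 482 and 1078 nt against 481, 0 and 691 nt, longer in every pair. EPOR, the erythropoietin receptor, covered 598, 61 and 718 nt against 571, 0 and 688 nt, nearly equal apart from the replicate 2 call.

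Metabolic and mitochondrial genes had 8 of 18 in more knockdown libraries (44.4%, against 26% of all genes) and 4 in fewer (22.2%, against 17.1%). ALDH16A1, of the aldehyde dehydrogenase family, covered 90, 120 and 240 nt in the knockdown and 0, 0 and 270 nt in the scrambled libraries, and APOE was called in 0 knockdown and 2 scrambled libraries. In the ribosome and translation list, 9 of 23 had a peak, 4 in more knockdown libraries (44.4%) and 2 in fewer (22.2%). EEF2, the translocation factor of the ribosome, had a peak in scrambled replicate 3 alone (508 nt). DOHH, which helps to make the hypusine of eIF5A, covered 210, 0 and 270 nt against 0, 0 and 270 nt.

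RNA processing genes lay near the background, with 5 of 21 in more knockdown libraries (23.8%) and 3 in fewer (14.3%). HNRNPM, a splicing regulator, covered 329, 0 and 180 nt in the knockdown and 120, 150 and 150 nt in the scrambled libraries. PRPF31, a spliceosome component, covered 270, 0 and 449 nt against 240, 61 and 478 nt. ALKBH7, a mitochondrial relative of ALKBH5, covered 148, 0 and 297 nt against 0, 0 and 296 nt.

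Ubiquitin and proteasome genes had 2 of 14 in more knockdown libraries (14.3%, against 26% of all genes) and 4 in fewer (28.6%, against 17.1%). UBXN6, a cofactor of the segregase p97, covered 120, 0 and 90 nt in the knockdown and nothing in the scrambled libraries, while KLHL26, of a family of ligase adaptors, covered 864, 0 and 1429 nt against 269, 61 and 1252 nt. The cytoskeleton, adhesion and matrix list had 6 of 27 in more (22.2%) and 5 in fewer (18.5%). Membrane trafficking and transport genes had 6 of 23 in more (26.1%) and 2 in fewer (8.70%), with the potassium channel KCNN4 at 538, 181 and 419 nt against 359, 0 and 389 nt.

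Cell cycle, DNA repair and apoptosis genes had 4 of 13 in more (30.8%) and 2 in fewer (15.4%), with CDC34, a ubiquitin-conjugating enzyme of the cell cycle, at 384, 148 and 502 nt in the knockdown and 355, 0 and 354 nt in the scrambled libraries. Zinc finger genes not named ZNF had 1 of 11 in more (9.09%) and 1 in fewer. ZBTB7A, a repressor of the BTB family, was called in all 6 libraries, with 688, 510 and 1614 nt against 511, 120 and 747 nt. ZBTB45 covered 655, 0 and 1632 nt against 149, 61 and 1307 nt, longer in the knockdown in replicates 1 and 3 and called in the scrambled library alone in replicate 2. Of the 499 genes, 292 were in no list.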

How the data were processed

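The lists of the 6 immunoprecipitates were used, and the input libraries were left out. CASAVA 1.8.2, TopHat2, SAMtools and hg19 are named, per the submitters' processing notes. The role of each tool, the peak caller and the threshold are not stated there. Each peak has a score that the authors deposited, read here as a p-value because its values reach at most 0.011, and how it was computed is not given in the sources used here. It was used to rank peaks inside 1 list. Each library has a list of its own, not pooled. Gene numbers became symbols through a RefSeq table of GRCh38.p14, for names only (10500 of 10536 matched, with none unmatched on chromosome 19). Of 5028 chromosome 19 peaks, 3057 entered, 1569 were in ZNF genes and 402 had no gene number. ZNF and other peaks were joined separately. Coordinates are those of the lists, counted from 1.

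Libraries were compared with two-sided exact permutation tests and pairs with exact sign-flip tests (Python 3.11.15, pandas 2.3.3, scipy 1.17.1), tested on simulated data. The labels tie replicate numbers to RNA type and antibody, so the numbers pair the libraries. Over member regions, the calls of a pair, less each group's mean, had correlations of 0.25, 0.32 and 0.40 in replicates 1, 2 and 3. The members, lists and tests were chosen with earlier results of these data known. Named regions are those called throughout 1 condition and nowhere in the other, then up to 10 repeated gains and losses and 5 called in all 6 libraries, ordered by their lowest score percentile, with the 5 genes of most regions and up to 4 genes per list by difference in libraries called. Some genes that these rules name are not reported here.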

Additional observations from a re-analysis of the deposited data

How the results depend on the processing

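The counts and differences of 13 results were recomputed with lists cut to equal size within pairs, with only the better-scored 50% of every list, blocks extended by 100 bp, a 50 bp overlap, ZNF genes included, and unnamed gene numbers included (no change, as chromosome 19 had none). Of 78 such values, 71 kept their direction or stayed within 1.5 times the count, including the 13 with unnamed gene numbers. Covered length and the gene counts do not depend on how blocks are joined. They were unchanged with extended blocks and with the 50 bp overlap, so those values add no check. The gene lists, the comparisons with ZNF genes and the shares of regions called in all 6 libraries were not recomputed. With ZNF genes included, the share of called regions differed by -0.0020 points and the gained share against chromosomes 16, 17 and 22 by -6.41 points, and repeated losses numbered 16. The gained share against other chromosomes then was 0.11 points higher, against 8.81 without ZNF genes, and the length difference was 0.06, against 0.15. With the best-scored 50%, the arms differed by 0.019 points, against 4.22. The best-scored 50% gave 1 region and 0 genes in all knockdown and no scrambled libraries, 21 repeated gains and 2 repeated losses. No test could pass 0.05 with 3 against 3. With the replicate block (sign-flip test) p was 0.25 for regions per library and for covered length and 0.5 for the share of called regions, with the differences unchanged at 57.7 regions, 44.8 kb and 0.35 points.

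Leaving out 1 library gave differences of -61.7 to 182.3 regions, 0.014 to 0.57 points of share and -11.1 to 113.9 kb. It gave 2 to 18 regions and 2 to 9 genes called throughout the knockdown only, and 0 to 7 regions and 0 to 5 genes throughout the scrambled libraries only. The groups then no longer held the same methods, and the counts asked for fewer libraries. The same counts were not made over all regions or genes. Leaving out 1 replicate number gave gained shares of 2.25 to 17.4 points against other chromosomes, -1.74 to 7.56 against chromosomes 16, 17 and 22, and 1.76 to 8.99 between arms. The length difference was 0.05 to 0.25 on the log2 scale, with 5 to 21 repeated gains and 0 to 7 repeated losses. After the data were seen, ZNF genes were also left out elsewhere (8.48 points, and 0.15 for length) and lengths were limited to regions called in all 6 libraries (0.14). Gains outnumbered losses in all 3 pairs in 54.5% of 5 Mb windows, 34.6% of 2 Mb windows and 66.7% of 10 Mb windows. Depth is unknown for every list.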
